A study of Homo sapiens with 4 samples.

Results

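The genes of the G1/S transition and of DNA replication were examined in U87MG cells, an established human glioblastoma line, after silencing of caspase-2. They comprise 43 genes chosen by function: D and E cyclins and their kinases, E2F factors, and the proteins that license origins, unwind and copy DNA, supply nucleotides and package the new chromatin. A gene is measured on the array through probe sets, groups of short probes along its transcript, and all probe sets annotated to 1 of these symbols alone were taken. All 43 genes were found, out of 18404 with a probe set of their own, by 44 of the 32321 probe sets (UHRF1 has a pair), and no filter on low values was applied. The series holds 4 Affymetrix Human Gene ST arrays of total RNA, 2 from cells transfected with a CASP2 siRNA and 2 from cells transfected with a control siRNA, and the labels call the 2 arrays of a group biological replicates. All cells were U87MG, transfected with a cationic lipid reagent and grown in the same medium. The labels name Dharmacon as the supplier of the siRNAs, and the control siRNA that the methods list under this supplier is a mutated form of the CASP2 siRNA. The silencing is transient, and all arrays come from 1 cell line.

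A cell enters S phase when D cyclins with CDK4 or CDK6, and then E cyclins with CDK2, phosphorylate the retinoblastoma protein and free E2F factors, which switch on the genes of DNA synthesis. The origin recognition complex, CDC6 and CDT1 load the MCM helicase on DNA in G1, and CDC45 and the GINS complex activate it in S phase. U87MG cells are known to lack the CDK inhibitor gene CDKN2A, a brake on CDK4 and CDK6 that is often deleted in glioblastoma.

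Values are log2 values, so a difference of 1 is a doubling, and each difference is the mean of the CASP2 siRNA arrays minus that of the control siRNA arrays. Each probe set was tested by limma, where the estimate of its spread is moderated by that of the others, and p-values were adjusted over all 32321 by Benjamini-Hochberg. The CASP2 probe set was at 8.79 and 8.52 on the CASP2 siRNA arrays and at 10.74 and 10.69 on the control siRNA arrays. This is a log2 difference of -2.06 (95% confidence interval -2.40 to -1.72), with an adjusted p of 0.9999 by limma. Its unadjusted limma p was 4.0e-05, and with the trend and robust options of limma its adjusted p was 0.062. After adjustment, limma called 0 of the 32321 probe sets at 0.05, while before adjustment 979 were under 0.05 (100 by the methods' t-test). The SD of the difference between arrays was 0.348 between the 2 CASP2 siRNA arrays, 0.238 to 0.290 between a CASP2 siRNA and a control siRNA array, and 0.205 between the 2 control siRNA arrays, so the 2 silenced arrays were the least alike. Of the mesenchymal and glioma markers, VIM, CD44, CAV1, TNC and FN1 had a control level between 11.90 and 13.04, CHI3L1 was at 9.62, and the progenitor marker NES was at 6.52. Of 23 probe sets for markers of neurons, oligodendrocytes, blood, epithelium and endothelium, 16 lay below the array median on every array. With 2 arrays a group, the smallest p that exact permutation of the labels allows is 0.333.

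Across the group, the G1/S and replication genes lay slightly lower in the CASP2 siRNA cells, but mostly on CASP2 siRNA replicate 2. The log2 difference was below 0 for 38 of the 44 probe sets, against 49.3% of all probe sets, and above 0 for 6 (50.7% of all), and its median was -0.12, against 0.0022 over all probe sets. The differences ran from -0.63 for GINS1, a subunit of the replicative helicase, to 0.41 for CDK6, a D cyclin partner. On 17 probe sets both silenced arrays lay below both control arrays, where 15.1% of all probe sets did so, and on 1, CDK6, both lay above, where 14.5% did. An unadjusted limma p under 0.05 was reached by 1 probe set with a lower value, CCND1 (background 1.49%), and by 1 with a higher value, CDK6 (background 1.54%). The study's thresholds were a fold above 1.5 with an unadjusted p under 0.05 from a t-test. With the p taken from limma instead, 0 members were lower (background 0.362%) and 0 higher (background 0.331%). Over all 32321 probe sets, 224 passed these thresholds with limma and 72 with the methods' t-test. No member passed the adjusted test, with an adjusted p of 0.9999 or more by limma for each. The methods' t-test put 0 members under an unadjusted 0.05 (0.309% of all probe sets), as did limma without control siRNA replicate 1 (1.48% of all) or replicate 2 (1.1% of all). Without CASP2 siRNA replicate 1, limma put 20 members there, but also 19.4% of all probe sets, against 3.03% with all arrays. In RNA from a whole culture, fewer cells in S phase and less of a transcript in each cell cannot be told apart. The study describes no overt change in proliferation, cell cycle or apoptosis of the silenced cells, without showing those data.

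The 2 silenced arrays gave different pictures. On CASP2 siRNA replicate 2, 41 of the 44 probe sets lay below the control mean (50.4% of all probe sets did), and the median of the differences was -0.25, against -0.0017 over all probe sets. On CASP2 siRNA replicate 1, 24 of the 44 lay below the control mean (49.6% of all did), and the median was -0.011, against 0.0013 over all. Replicate 2 lay below both control arrays for 40 members (40.2% of all probe sets) and replicate 1 for 19 (37% of all probe sets). Replicate 2 lay above both controls for 3 members (39.3% of all) and replicate 1 for 14 (37.6% of all). For 42 of the 44 members replicate 2 was the lower of the silenced arrays, as for 53.4% of all probe sets. Over all 44 the median absolute gap between the silenced arrays was 0.24. The corresponding absolute gap between the 2 control siRNA arrays was 0.055. Over all probe sets these gaps were 0.18 and 0.087. The members' gap between the silenced replicates was thus larger than their median difference between the groups. Without replicate 2 the members' median was -0.011.

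**Figure D1:**
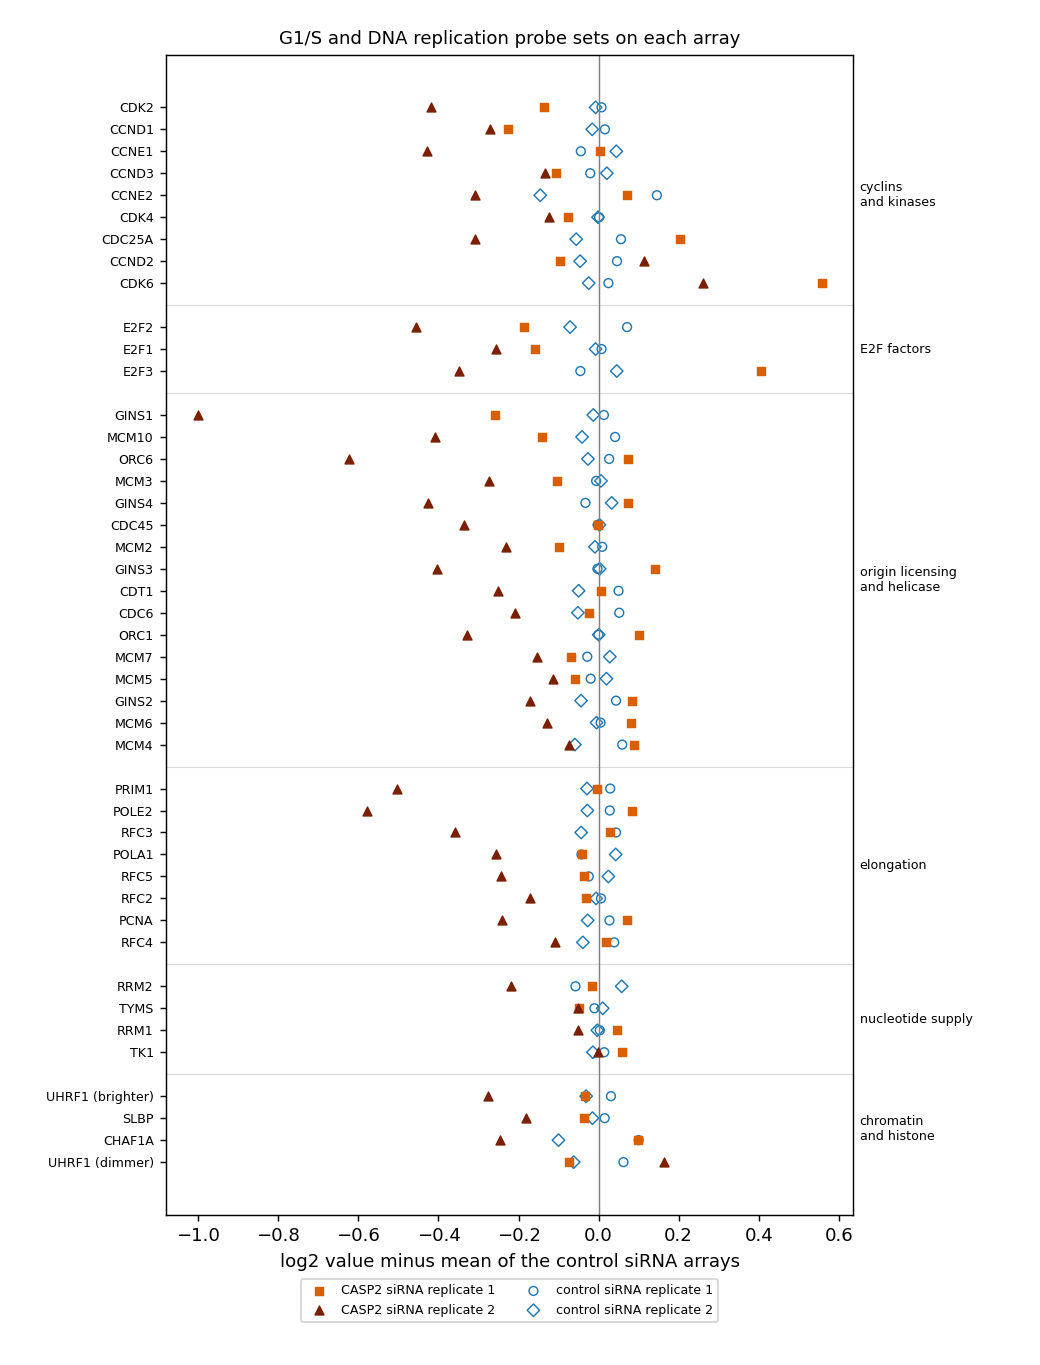
Distance of the 44 probe sets from their control siRNA mean on every array (x axis, log2), by gene and role (y axis). Filled symbols are the CASP2 siRNA arrays and open symbols the control siRNA arrays. The triangles of CASP2 siRNA replicate 2 lie to the left of 0 for 41 probe sets, the squares of replicate 1 for 24, and GINS1 lies farthest left at -1.002.

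**Figure D2:**
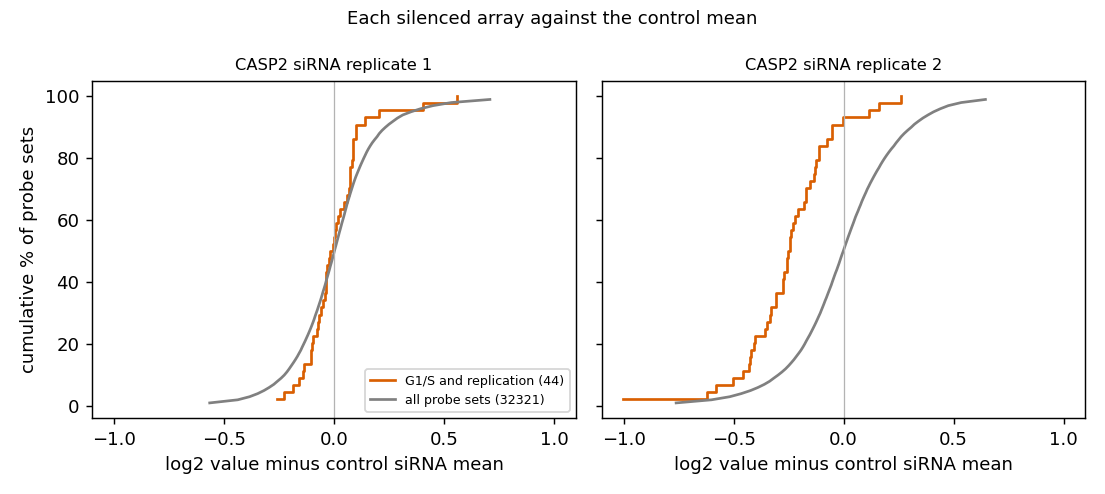
Cumulative percent of probe sets (y axis) against the log2 value minus the control siRNA mean (x axis), for CASP2 siRNA replicate 1 (left) and replicate 2 (right); the stepped line is the 44 member probe sets and the smooth line all 32321, drawn from their percentiles. The lines run close together on replicate 1 (medians -0.011 and 0.0013) and apart on replicate 2 (medians -0.25 and -0.0017).

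Probe sets of different level had different medians, in no steady order with level. The 8080 brightest probe sets, which hold 35 of the 44 members, had a median of -0.053 on CASP2 siRNA replicate 2 and 0.019 on replicate 1, each against the control mean. The 35 members among them had a median of -0.24 on replicate 2 and -0.017 on replicate 1. The next 8080 probe sets by level had a median of -0.021 on replicate 2, and the 7 members among them had -0.46. On replicate 1 these next 8080 had -0.011 and their 7 members 0.0067. The 8080 after them, with 2 members, had 0.11 on replicate 2 and -0.049 on replicate 1, and the 8081 dimmest, with no member, had -0.0010 on replicate 2 and 0.027 on replicate 1. After cyclic loess, which removes trends with level between arrays, the members' median on replicate 2 was -0.18, with 40 of 44 below the control mean. On replicate 1 it was then -0.025, with 27 of 44 below. Before it, the upper quartile of all values was 8.58 on CASP2 siRNA replicate 2 and 8.69 on replicate 1. The control siRNA arrays had 8.66 and 8.68. The 23 probe sets for markers of other cell types had a mean level of 5.43 and 5.58 on the CASP2 siRNA arrays and of 5.48 and 5.48 on the control siRNA arrays, and 18 of them lay above the control mean on replicate 2. The part of level and of other cells in the result was not tested.

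Among the cyclins and kinases, CCND1 was lower and CDK6 higher on both silenced arrays, CDK2, CDK4 and CCND3 lay below both controls on both, and the E cyclins and CDC25A lay lower on replicate 2 alone. CCND1 encodes cyclin D1, which carries growth signals to CDK4 and CDK6. Its log2 value was 12.03 and 11.98 on the CASP2 siRNA arrays and 12.27 and 12.24 on the control siRNA arrays. The silenced arrays lay close together and below both controls, with a log2 difference of -0.25 (95% interval -0.49 to -0.0069) or 1.19-fold. CCND3, cyclin D3, was at 10.93 and 10.90 on the CASP2 siRNA arrays and at 11.02 and 11.06 on the control siRNA arrays (-0.12, interval -0.36 to 0.12). CCND2, cyclin D2, was at 4.89 and 5.10 on the CASP2 siRNA arrays and at 5.03 and 4.94 on the control siRNA arrays, below the array median on all 4.

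CDK6, the kinase partner of the D cyclins, was the member with the largest positive difference. Its log2 value was 9.30 and 9.01 with the CASP2 siRNA and 8.77 and 8.72 with the control siRNA, and both silenced arrays lay above both controls. The log2 difference was 0.41 (interval 0.052 to 0.77), or 1.33-fold, and replicate 1 contributed more, with 0.56 over the control mean against 0.26 for replicate 2. The related kinase CDK4 was at 12.18 and 12.13 on the CASP2 siRNA arrays and at 12.25 on each control siRNA array, slightly lower on both silenced arrays (-0.10, interval -0.34 to 0.14). CDK2, the E cyclin partner, was at 10.00 and 9.72 with the CASP2 siRNA, against 10.15 and 10.13 with the control siRNA (-0.28, interval -0.62 to 0.067). Its silenced arrays lay below both controls.

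CCNE1, cyclin E1, was at 8.27 and 7.83 on the CASP2 siRNA arrays and at 8.22 and 8.31 on the control siRNA arrays (-0.21, interval -0.67 to 0.25). Replicate 1 lay between the controls and only replicate 2 was lower, by 0.43. The same split was seen for CCNE2, cyclin E2 (0.071 on replicate 1 and -0.31 on replicate 2). CDC25A, the phosphatase that activates CDK2, had replicate 1 above both controls (0.20 over their mean) and replicate 2 below both (-0.31). In all, 7 of the 9 probe sets of this class had a difference below 0 (49.3% of all probe sets), with a median of -0.12.

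Of the E2F factors, E2F1 and E2F2 were lower on both silenced arrays and E2F3 went in opposite directions. E2F1, an activator of the replication genes, was at 9.79 and 9.70 on the CASP2 siRNA arrays and at 9.96 and 9.95 on the control siRNA arrays. The log2 difference was -0.21 (interval -0.46 to 0.044). E2F2, a further activator, was at 7.25 and 6.98 with the CASP2 siRNA and at 7.51 and 7.37 with the control siRNA (-0.32, interval -0.68 to 0.039). In both genes the groups did not overlap. E2F3, the remaining activator of the family, was at 7.74 and 6.99 on the CASP2 siRNA arrays and at 7.29 and 7.38 on the control siRNA arrays. Replicate 1 lay above both controls (0.40 over their mean) and replicate 2 below both (-0.35), and the mean difference was 0.029 with an interval of -0.69 to 0.74.

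Promoters are shown because many genes of the group are known E2F targets. RefSeq promoters (GRCh38.p14), from 250 bases before to 50 after the annotated start, were found for 36 of the 43 genes, with 49 promoters in all. They were searched on both strands for the E2F words TTTCCCGC, TTTCGCGC, TTTGCCGC and TTTGGCGC, which can overlap each other. Of the 49 promoters, 20 (40.8%) held at least 1 word, from 19 genes, against 3.31% of all 35116 promoters of the same length. CCAAT, the core of the NF-Y box, was found in 61.2% of the 49 promoters and in 34.6% of all. A match is a description of the sequence and not a measured binding site. The whole promoters of GINS1, the member with the largest negative difference, and of E2F1 follow, 5′ to 3′ in the sense of the gene, with the E2F words in capitals.
GINS1, chr20:25407423-25407722, plus strand: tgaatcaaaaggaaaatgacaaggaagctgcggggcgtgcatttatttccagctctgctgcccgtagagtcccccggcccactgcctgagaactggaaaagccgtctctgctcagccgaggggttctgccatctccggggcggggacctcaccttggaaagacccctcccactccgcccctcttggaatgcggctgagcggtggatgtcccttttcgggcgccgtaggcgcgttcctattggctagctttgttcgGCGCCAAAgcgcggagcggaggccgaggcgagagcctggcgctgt
E2F1, chr20:33686336-33686635, minus strand: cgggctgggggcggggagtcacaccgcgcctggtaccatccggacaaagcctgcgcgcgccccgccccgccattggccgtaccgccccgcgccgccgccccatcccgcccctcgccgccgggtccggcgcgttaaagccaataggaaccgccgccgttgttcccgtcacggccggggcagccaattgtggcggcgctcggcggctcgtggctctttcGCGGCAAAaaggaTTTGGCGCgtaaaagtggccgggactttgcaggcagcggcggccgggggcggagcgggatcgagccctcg

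In GINS1 the word starts just after the annotated start, and in E2F1 a pair of words lies just before it. The 17 genes without a word include the helicase and loading genes CDC45, MCM10, ORC1 and ORC6. Stretches of 40 bases around the last word follow for further promoters, picked among those that hold a word, again with the words in capitals.
E2F2, chr1:23531252-23531291, minus strand: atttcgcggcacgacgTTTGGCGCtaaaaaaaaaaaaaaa
MCM2, chr3:127598401-127598440, plus strand: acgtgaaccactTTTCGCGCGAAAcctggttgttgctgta
MCM3, chr6:52284723-52284762, minus strand: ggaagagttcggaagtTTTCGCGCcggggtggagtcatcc
MCM6, chr2:135876506-135876545, minus strand: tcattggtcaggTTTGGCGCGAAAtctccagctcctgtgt
MCM7, chr7:100101383-100101422, minus strand: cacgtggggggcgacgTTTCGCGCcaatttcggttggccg
CDC6, chr17:40287870-40287909, plus strand: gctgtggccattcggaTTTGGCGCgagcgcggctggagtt
POLE2, chr14:49688196-49688235, minus strand: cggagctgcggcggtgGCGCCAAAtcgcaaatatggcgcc
PCNA, chr20:5126658-5126697, minus strand: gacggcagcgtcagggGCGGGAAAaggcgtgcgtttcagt

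In MCM2 and MCM6 the capitals are words on opposite strands that overlap by 4 bases. The ranges of the genes with and without a word overlapped. The 19 genes with a word had a median log2 difference of -0.13, with 18 below 0, and the 17 without had -0.11, with 15 below 0. Of all probe sets, 49.3% lay below 0. On CASP2 siRNA replicate 2 the medians were -0.26 with a word and -0.22 without, and on replicate 1 they were -0.024 with and -0.00083 without. No E2F word was found in the promoters of CDK6, the member with the highest difference. None was found either for MCM10 (-0.28), ORC6 (-0.27) and PRIM1 (-0.25), which are among the lowest members. MCM6, with 4 words, had -0.023.

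**Figure D3:**
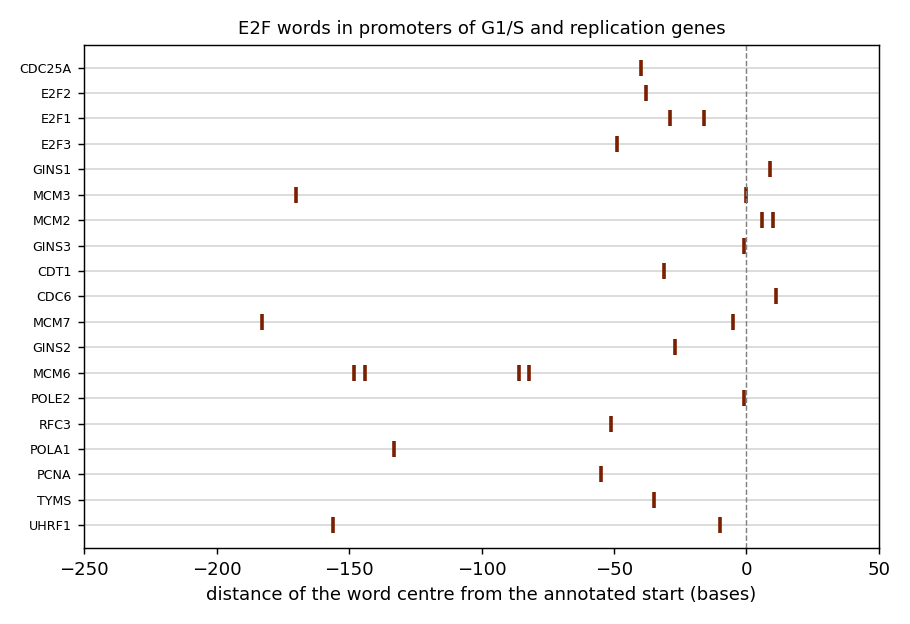
Position of each E2F word (tick, at its centre) in the promoters of the 19 genes that hold one, in bases from the annotated start (x axis, dashed line at 0), by gene (y axis, in the order of the roles); promoters of a gene with several starts share a line. The word centres lie between -183 and 11, and MCM6 holds 4.

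The origin licensing and helicase genes had 15 of 16 differences below 0 (49.3% of all probe sets), with a median of -0.13. All 16 lay below the control mean on replicate 2 (50.4% of all) but only 8 on replicate 1 (49.6% of all). GINS1, a subunit of the GINS complex that activates the helicase, was at 8.65 and 7.91 on the CASP2 siRNA arrays and at 8.92 and 8.90 on the control siRNA arrays. Both silenced arrays lay below both controls, but replicate 2 was far lower than replicate 1, with -1.002 against -0.26 from the control mean. The value of replicate 2 was the 137th lowest of 32321, and the log2 difference was -0.63 (interval -1.33 to 0.075), or 1.55-fold. The other GINS subunits had smaller differences, -0.18 for GINS4, -0.13 for GINS3 and -0.044 for GINS2. On replicate 1 these other 3 lay above the control mean, by 0.073, 0.14 and 0.084 in the same order, and on replicate 2 below it, by 0.43, 0.40 and 0.17.

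MCM10, which helps to start the unwinding of origins, was at 9.80 and 9.53 with the CASP2 siRNA and at 9.98 and 9.90 with the control siRNA (-0.28, interval -0.62 to 0.070), without overlap of the groups. CDC45, the partner of GINS and MCM in the active helicase, was at 9.43 and 9.09 on the CASP2 siRNA arrays and at 9.43 on each control siRNA array. Replicate 1 was thus at the control level and replicate 2 was lower by 0.34.

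MCM2 to MCM7, the 6 subunits of the helicase ring, differed little. The median of their log2 differences was -0.099, and the differences lay at -0.17 for MCM2, -0.19 for MCM3, 0.0069 for MCM4, -0.087 for MCM5, -0.023 for MCM6 and -0.11 for MCM7. MCM3 was at 10.85 and 10.68 on the CASP2 siRNA arrays and at 10.95 and 10.96 on the control siRNA arrays. MCM2, MCM3, MCM5 and MCM7 had both silenced arrays below both controls, by 0.060 to 0.10 from the control mean on replicate 1 and 0.11 to 0.27 on replicate 2. MCM4 and MCM6 lay on either side of the control mean.

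Of the loading factors, ORC6, the smallest subunit of the origin recognition complex, was at 7.25 and 6.56 on the CASP2 siRNA arrays and at 7.21 and 7.15 on the control siRNA arrays. Replicate 1 was above both controls and replicate 2 well below them, so that the difference of -0.27 had an interval of -0.94 to 0.39. ORC1, the largest subunit, showed the same split (0.10 on replicate 1 and -0.33 on replicate 2). CDC6 and CDT1, which load the MCM ring, had -0.024 and 0.0067 on replicate 1 and -0.21 and -0.25 on replicate 2, in that order.

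All 8 elongation genes had a difference below 0 (49.3% of all probe sets), with a median of -0.14. On replicate 1, however, 4 of the 8 lay above the control mean, where 49.6% of all probe sets lay below it. PRIM1, the catalytic subunit of primase, was at 9.36 and 8.86 with the CASP2 siRNA and at 9.40 and 9.34 with the control siRNA. Replicate 1 lay between the controls and replicate 2 lower by 0.50, with a difference of -0.25 (interval -0.76 to 0.25). POLE2, an accessory subunit of DNA polymerase epsilon, was at 8.51 and 7.85 on the CASP2 siRNA arrays and at 8.46 and 8.40 on the control siRNA arrays. Here replicate 1 lay above both controls and the interval ran from -0.89 to 0.39. POLA1, the catalytic subunit of DNA polymerase alpha, had -0.15, and PCNA, the sliding clamp, -0.086 (interval -0.45 to 0.28). The clamp loader subunits RFC2, RFC3, RFC4 and RFC5 had -0.10, -0.17, -0.046 and -0.14, and the groups did not overlap for RFC2 and RFC5.

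The genes of nucleotide supply had a median difference of -0.027, the closest to 0 of the 6 roles. RRM2, the regulated subunit of ribonucleotide reductase, was at 10.71 and 10.51 on the CASP2 siRNA arrays and at 10.67 and 10.78 on the control siRNA arrays (-0.12, interval -0.43 to 0.20). Replicate 1 lay between the controls. TYMS, thymidylate synthase, was at 11.94 on each CASP2 siRNA array and at 11.979 and 11.9997 on the control siRNA arrays. The groups did not overlap, but the difference was -0.050 (interval -0.29 to 0.19). RRM1, the other subunit of the reductase, had -0.0028 (interval -0.25 to 0.25), and TK1, thymidine kinase, 0.029 (interval -0.21 to 0.27).

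Of the chromatin genes, UHRF1, which guides DNA methylation to newly copied DNA, was at 10.70 and 10.46 in its brighter probe set on the CASP2 siRNA arrays and at 10.77 and 10.71 on the control siRNA arrays (-0.16, interval -0.48 to 0.17). Its dimmer probe set lay below the median of every array, at 5.86 and 6.10 with the CASP2 siRNA and at 5.999 and 5.87 with the control siRNA, and did not follow the brighter one (0.044, interval -0.29 to 0.38). SLBP, which binds the stem-loop of histone mRNAs, was at 10.02 and 9.88 on the CASP2 siRNA arrays and at 10.08 and 10.05 on the control siRNA arrays. Both silenced arrays lay below both controls (-0.11, interval -0.38 to 0.16). CHAF1A, of the factor that places histones on new DNA, had -0.074, with 0.10 over the control mean on replicate 1 and -0.25 on replicate 2.

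**Figure D4:**
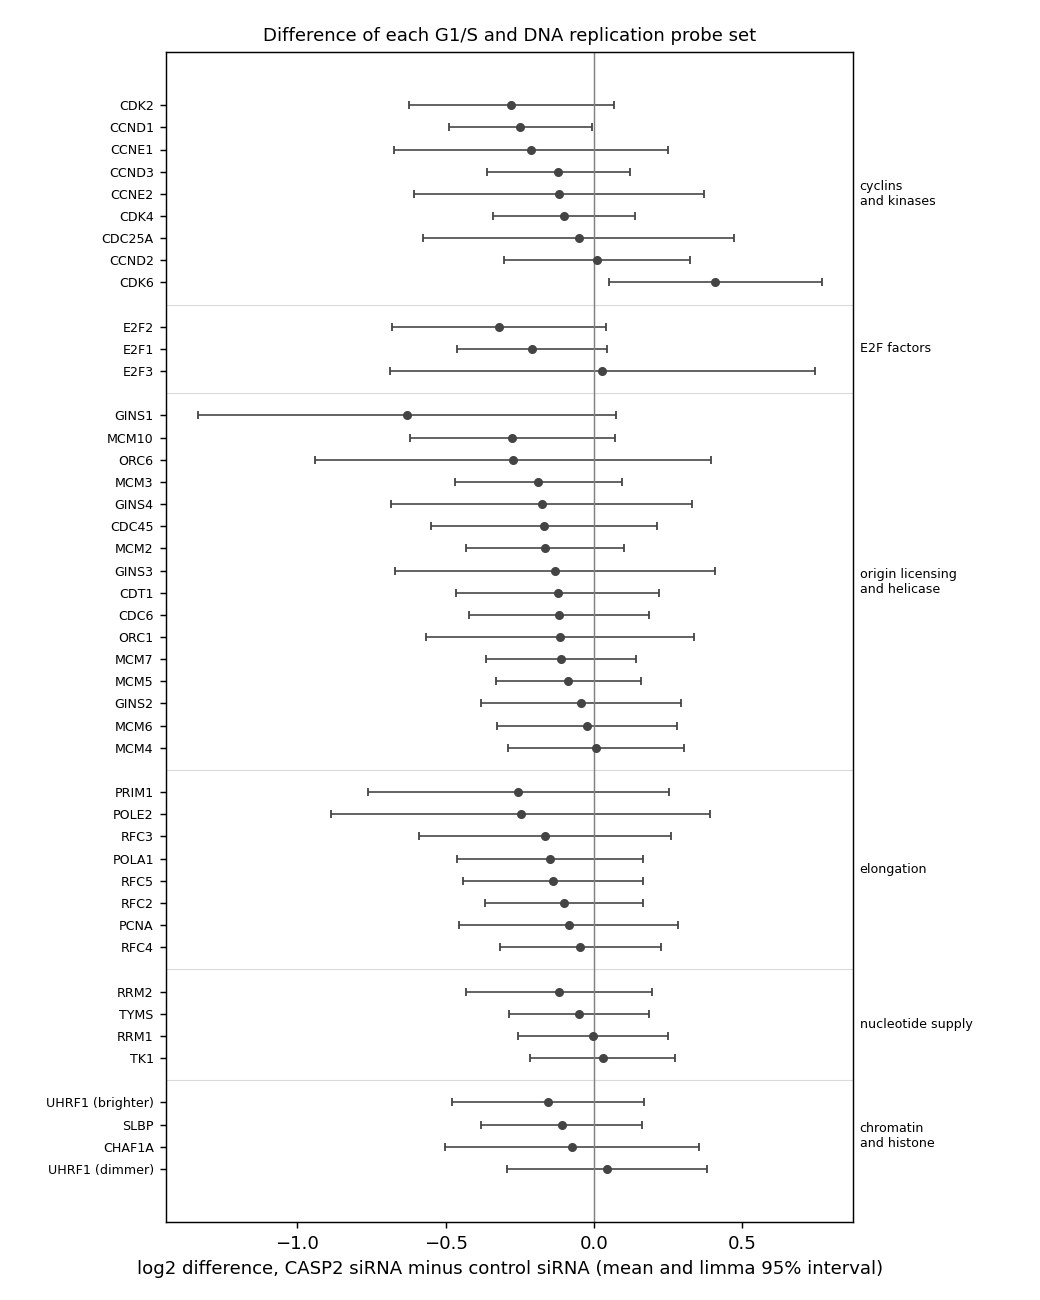
Log2 difference, CASP2 siRNA minus control siRNA (x axis; points are means and bars limma 95% confidence intervals), of the 44 probe sets by gene and role (y axis). The intervals exclude 0 for CCND1 (-0.49 to -0.0069) and CDK6 (0.052 to 0.77) and include it for the other 42.

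Further genes of the same pathways had more values below 0 than above, mostly on replicate 2. Their lists were chosen by function, but with earlier results of these data known. They were read on the same arrays as the members, so they are not a separate check. Of the 82 genes listed, 80 were measured, by 85 probe sets. The log2 difference was below 0 for 65 of these 85 (49.3% of all probe sets), with a median of -0.084. The median against the control mean was -0.14 on CASP2 siRNA replicate 2, with 70 of the 85 below it (50.4% of all probe sets). On replicate 1 the median was -0.0054, with 44 of the 85 below the control mean. These 44 are 51.8%, near the 49.6% of all probe sets. An unadjusted limma p under 0.05 was reached by 1 of the 85 with a lower (1.49% of all probe sets) and 1 with a higher value (1.54% of all), shares near those over all probe sets, and none passed the adjusted test.

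Among 26 probe sets for other G1/S and cell cycle regulators, 19 lay below 0 (49.3% of all probe sets), with a median of -0.068. CKS1B, a small subunit bound to cyclin-dependent kinases, is read by 3 probe sets. The brightest was at 11.12 and 10.87 on the CASP2 siRNA arrays and at 11.49 and 11.53 on the control siRNA arrays, below both controls (-0.51, interval -0.84 to -0.18). Another had -0.26 (interval -0.62 to 0.10), with -0.41 on replicate 1 and -0.11 on replicate 2. The remaining probe set, a dim one, had -0.40 (interval -1.35 to 0.54). Near-identical copies of CKS1B exist in the genome, and their part in these signals was not tested. FBXW7, part of the ubiquitin ligase that removes cyclin E, had -0.34 (interval -0.85 to 0.17), with -0.085 on replicate 1 and -0.59 on replicate 2. CDC25B, a CDK-activating phosphatase, was higher on both silenced arrays, at 9.55 and 9.50 with the CASP2 siRNA and at 9.24 and 9.27 with the control siRNA (0.27, interval 0.027 to 0.51). The retinoblastoma gene RB1 had -0.0055, the CDK inhibitor CDKN1A -0.11, and the E2F family members E2F5 and E2F6 0.081 and 0.057. CDKN2A was at 5.72 and 5.80 on the CASP2 siRNA arrays and at 5.75 and 5.78 on the control siRNA arrays, below the median of every array.

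Among 37 probe sets for other replication genes, 31 lay below 0 (49.3% of all probe sets), with a median of -0.099. TIMELESS, which protects moving forks, was at 7.55 and 7.15 with the CASP2 siRNA and at 7.76 and 7.75 with the control siRNA, without overlap (-0.40, interval -0.83 to 0.026). FEN1, the flap nuclease of lagging strand synthesis, had -0.28 (interval -0.68 to 0.11), with -0.11 on replicate 1 and -0.46 on replicate 2. A probe set of MCM9 had -0.31, with 0.046 on replicate 1 and -0.66 on replicate 2, while its other probe set had 0.024. The highest values were those of TICRR (0.097), needed for origin firing, RFC1 (0.061), the large clamp loader subunit, and CHTF18 (0.056), of an alternative clamp loader. Of 22 probe sets for nucleotide and chromatin genes, 15 lay below 0 (49.3% of all probe sets), with a median of -0.034. Here CTPS1, which makes CTP, had -0.20 (-0.12 on replicate 1 and -0.27 on replicate 2), the dUTPase DUT -0.17 and UMPS, of pyrimidine synthesis, -0.14. SAMHD1, which degrades deoxynucleotides, had 0.17, HELLS, a chromatin remodeller, 0.092 and RRM2B, a further reductase subunit, 0.074.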

How the data were processed

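Total RNA of U87MG cells was measured on 4 arrays, grouped by the treatment in the sample labels. The deposited values are the log2 output of RMA, run by the authors, with a single value for a probe set on an array. Its version is not given in the sources consulted. RMA makes the distribution of probe values alike between arrays, so a change common to most genes is largely removed. Array values carry no read depth, and the number of arrays limits the precision.

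Genes were assigned by the platform annotation, with symbols updated through the RefSeq gene table (GRCh38.p14). Of the 32321 probe sets, 19158 had 1 symbol, 1388 several and 11775 none. Fits used lmFit and eBayes of limma 3.58.1 under R 4.3.3, two-sided, over all probe sets, and were tested on simulated data. P-values measure only the spread between these arrays. The members and the lists were chosen with earlier results of these data known, so no test over a list was made. Per-array values are given for the 12 members with the largest absolute difference and the first 2 of each role, and shorter values for the other members. Of the further lists, the 3 highest and 3 lowest were named; per-array values of further members, and CDKN1A, CDKN2A, RB1 and the other probe sets of CKS1B and MCM9, were added after their values were seen. Alternatives were the methods' t-test with the SD raised to its median, eBayes with trend and robust options, quantile normalization, leaving out dim probe sets, keeping the brightest probe set of a gene, blocking on replicate number and dropping single arrays. Cyclic loess was added after seeing the data.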

Additional observations from a re-analysis of the deposited data

How the results depend on the processing

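The count of 0 probe sets past the adjusted test was the same under all alternatives run, for the members and for all probe sets, and the log2 difference of CASP2 ranged from -2.20 to -1.93. Members with an unadjusted p under 0.05 numbered 7 with the trend and robust options of eBayes (3.83% of all probe sets) and 0 by the methods' t-test (0.309% of all). After cyclic loess, 2 members had groups that did not overlap with higher values (15.9% of all). The labels do not say whether same-numbered arrays were paired. Deviations of same-numbered arrays correlated with r = 0.020 over probe sets. With a single difference between replicates in each group, this cannot settle the pairing. The limma fit with the replicate block gave 2 members with an unadjusted p under 0.05 (965 of all 32321 probe sets). Without the block it also gave 2 members (979 of all 32321).

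When single arrays were dropped, the members' median ran from -0.25 to -0.011, the lowest without CASP2 siRNA replicate 1 and the nearest to 0 without CASP2 siRNA replicate 2. Members below 0 ran from 24 to 41 (48.8% to 50.5% of all probe sets), those with groups not overlapping from 19 to 40 lower (24.9% to 40.2% of all) and from 1 to 14 higher (26% to 39.3% of all), and those with an unadjusted p under 0.05 from 0 to 20 (1.1% to 19.4% of all), with 0 without either control array. Of the named genes, ORC6 ran from -0.62 to 0.074, POLE2 from -0.58 to 0.085, CCNE1 from -0.43 to 0.0046, the MCM9 probe set with the lower value from -0.66 to 0.046, UMPS from -0.29 to 0.016, E2F6 from -0.068 to 0.18, CHTF18 from -0.11 to 0.22, E2F5 from -0.025 to 0.19, RRM2B from -0.026 to 0.17 and the dim CKS1B probe set from -0.86 to 0.052. CDK6 ran from 0.26 to 0.56, GINS1 from -1.002 to -0.26 and CCND1 from -0.27 to -0.23, and none of these changed sign. For 21 of the 44 member probe sets the silenced arrays lay on opposite sides of the control mean (16658 of all 32321). Dropping 1 or the other silenced array thus gave them opposite signs. Among them were also E2F3 (-0.35 to 0.40), GINS3 (-0.40 to 0.14) and CDC25A (-0.31 to 0.20).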
